A study of Mus musculus with 10 samples.

Results

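The genes described are 8 enzymes of the mevalonate and sterol synthesis pathway, *Acat2*, *Hmgcs1*, *Mvk*, *Pmvk*, *Mvd*, *Fdps*, *Sqle* and *Lss*, given in the order in which the pathway uses them. They were picked by name, as the table entries whose symbol equals one of these 8, and all 8 were found among the 25232 genes of the table. The study sequenced spinal cord RNA of 10 female mice of 90 days on a C57BL/6J background, which the labels give as C57BL/6. Of these, 5 were wild type (WT) littermates and 5 were *SOD1 G93A* mice, which carry a human *SOD1* transgene with the G93A mutation in high copy number and serve as a model of amyotrophic lateral sclerosis (ALS). The labels give the tissue as spinal cord, and the methods give its lumbar region.

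One table with the result of the comparison between the genotypes was used. Only its base mean was taken from it, which is the authors' mean, over all 10 libraries of both genotypes, of the read counts of a gene after division by a size factor for each library. Values of single mice, the depth of each library and the spread within a genotype were therefore not analysed here. No difference between *SOD1 G93A* and WT mice is given for any gene, and no value below has an error between mice. The values describe how abundant the transcripts of the pathway were in the cords of both genotypes pooled. In whole tissue, few cells with much of a transcript and many cells with little of it cannot be told apart.

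The mevalonate pathway builds isoprenoid units from acetyl-CoA, and its sterol branch joins these units to squalene and folds squalene oxide into lanosterol, from which cholesterol is made. Myelin holds most of the cholesterol of the brain and cord, and oligodendrocytes and astrocytes are among the cells that run the pathway there. Transcription of the pathway genes is driven by the sterol sensor system of SCAP, INSIG and the SREBP factors, with NF-Y and Sp1 as partner factors at many of the promoters.

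The tissue label was checked against defining markers. The myelin gene *Mbp* had the highest base mean of the table, at 319615, and all 6 oligodendrocyte markers were above the 75th percentile of genes with a base mean above 0 (1007). The same held for 5 of 5 astrocyte markers, with *Gfap* at a base mean of 56290, and for 4 of 4 neuronal markers, with *Snap25* at 59050. Of the motor neuron markers, *Slc5a7* had a base mean of 2316, *Chat* 735 and *Isl1* 45.6. Among the microglial markers, *Csf1r* had 3041, *Cx3cr1* 1278, *P2ry12* 583 and *Aif1* 111. The endothelial markers *Cldn5* and *Pecam1* had 710 and 631. Of the genes that mark position along the cord, *Hoxc8* had a base mean of 1358, *Hoxc10* 489, *Hoxa10* 235, *Hoxc9* 161 and *Hoxd10* 152. Of the forebrain genes, *Emx1* was near 0, at 0.993, while *Neurod6* had 78.9. *Prx*, a myelin gene of Schwann cells, had a base mean of 484, so RNA with a marker of peripheral nerve was present in the libraries. The liver genes *Alb* and *Apoa2* had 46.8 and 216, and the skeletal muscle genes *Acta1* and *Ckm* had 251 and 108.

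All 8 enzymes were detected. The 20973 genes with a base mean above 0 had a median base mean of 247, and the 8 enzymes lay above it in 8 of 8 cases, with a median base mean of 1203. Of the 8, 5 were above the 75th percentile and 1, *Hmgcs1*, was above the 90th. The median percentile of the 8 by base mean was 78.2 among genes above 0. It was 71.3 when only genes reaching a base mean of 10 were ranked, and 63.7 when only those reaching 100 were. In that last ranking *Mvk* and *Mvd* were below the middle, at the 42.0 and 43.1 percentiles. The percentile by base mean ranks a gene among the others by its normalized counts and takes no account of its length. Together the 8 enzymes made up 0.0793% of the sum of all base means, and *Hmgcs1* alone gave 52.5% of this share.

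**Figure D1:**
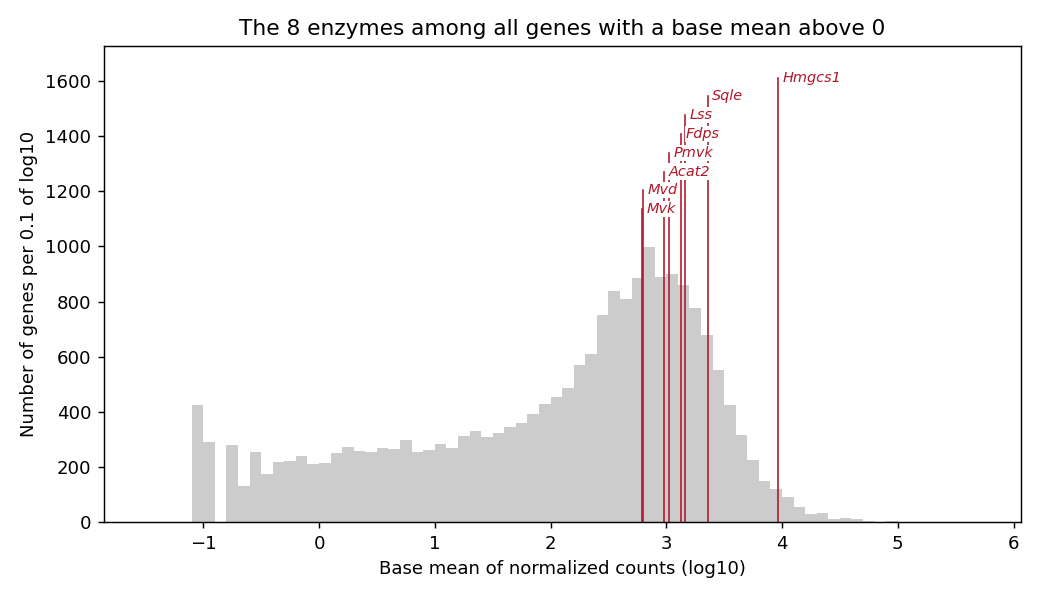
Number of genes in bins of 0.1 of the log10 base mean, over the 20973 genes with a base mean above 0 (grey; genes at 0 are not drawn). Red lines mark the 8 enzymes, and their height only makes room for the names. All 8 lie to the right of the median of 247, with *Mvk* the lowest at 611 and *Hmgcs1* apart from the rest at 9234.

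Long transcripts give more fragments than short ones, so ratios of levels between genes were taken only after division by length, while percentiles, counts above the median or the 75th percentile and shares of a sum rest on base means. The level per length is the base mean per kilobase of exon, counting each base that any annotated exon of the gene covers once. Its median was 359 over the 8 enzymes and 63.5 over all genes above 0 that had a length.

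At the entry to the pathway, *Acat2* encodes the cytosolic thiolase that condenses acetyl-CoA to acetoacetyl-CoA. It had a base mean of 962 and a level of 378 per kilobase. *Hmgcs1*, whose cytosolic synthase adds a further acetyl-CoA, was the most abundant enzyme of the 8 by either scale. Its base mean was 9234, rank 306 from the top of the table, and its level was 2010 per kilobase, at the 98.2 percentile of all genes by level per length. This level per length was 5.32 times that of *Acat2*, which acts a step earlier, and 3.27 times that of *Pmvk*, the enzyme with the next highest level per length.

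The next enzymes turn mevalonate into the first isoprenoid unit. *Mvk*, mevalonate kinase, had a base mean of 611 and a level of 228 per kilobase, so the level of *Hmgcs1* per length was 8.80 times higher. *Pmvk*, phosphomevalonate kinase, had a base mean of 1054 and, with the shortest exon length of the 8, 1713 bases, the highest level per length after *Hmgcs1*, at 615 per kilobase. *Mvd*, the decarboxylase that yields isopentenyl diphosphate, had a base mean of 631 and a level of 340 per kilobase. These enzymes act one after another on the same chain of intermediates, and the level of *Pmvk* per length was 2.69 times that of *Mvk*.

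The last 3 enzymes lead into the sterols. *Fdps* makes farnesyl diphosphate, the branch point between sterols and other isoprenoids, and had a base mean of 1353 and a level of 321 per kilobase. *Sqle* oxidises squalene with molecular oxygen and is a control point of the sterol branch. It had a base mean of 2273 and a level of 410 per kilobase. *Lss* closes squalene oxide to lanosterol. It had a base mean of 1458 and the lowest level per length, 135 per kilobase over 10787 exon bases. It was also lowest over the longest transcript, at 209 per kilobase, and over the longest protein-coding transcript, at 312, but not over the coding length, where *Mvk* was lowest at 500.4 beside 663 for *Lss*.

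The order by level per length was *Hmgcs1*, *Pmvk*, *Sqle*, *Acat2*, *Mvd*, *Fdps*, *Mvk* and *Lss*. Neighbours from *Sqle* to *Fdps* differed by factors of at most 1.11, and with no spread between mice these neighbours cannot be set apart. The choice of length moved several places as well. The annotation includes transcripts with retained introns, which alone cover 5850 of the 10787 exon bases of *Lss*, 2431 of 4208 in *Fdps*, 2788 of 5546 in *Sqle*, 946 of 4594 in *Hmgcs1* and 679 of 2675 in *Mvk*. Over the longest protein-coding transcript alone *Fdps* came second with 979 per kilobase, against 321 over all exons. *Sqle* rose from 410 to 824 per kilobase in the same way, *Lss* from 135 to 312 and *Mvk* from 228 to 368. *Hmgcs1* came first under each of the 4 lengths tried, by 2.72 to 3.27 times over the next enzyme.

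**Figure D2:**
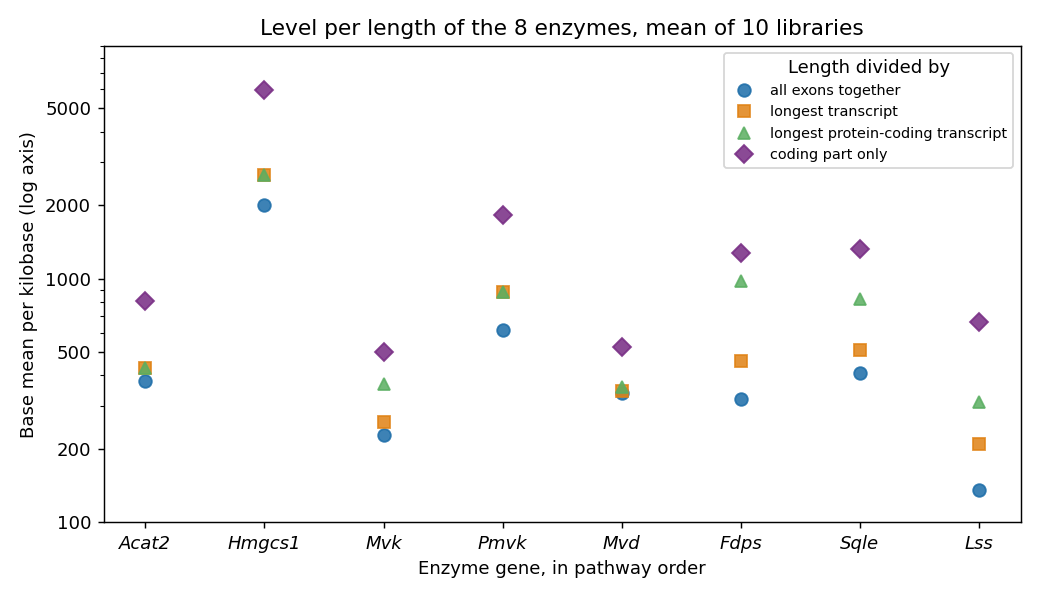
Base mean per kilobase (log axis) of the 8 enzymes in pathway order, each divided by 4 lengths: all exons together (circles), the longest transcript (squares), the longest protein-coding transcript (triangles) and the coding part (diamonds). Each point is 1 pooled value with no error bar. *Hmgcs1* is highest in each series, from 2010 over all exons to 5919 over the coding part. Against all exons, all 8 rise by a factor of at least 1.5 over the coding part. *Mvk*, *Fdps*, *Sqle* and *Lss* also do so over the longest protein-coding transcript.

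The rest of the pathway was described from a list of 17 other enzymes, all 17 of which were in the table. Their median base mean was 893 and their median level 286 per kilobase, beside 359 for the 8 enzymes. Of the 17, 15 were above the median base mean of the table and 8 above its 75th percentile. *Fdft1*, the squalene synthase that acts between *Fdps* and *Sqle*, had a base mean of 3080. After *Lss*, the demethylating enzymes *Cyp51* and *Msmo1* had base means of 2875 and 2524, and *Sc5d* and *Dhcr7* of the late steps had 2087 and 1315. *Nsdhl*, *Hsd17b7* and *Ebp*, which act between them, had base means of 815, 893 and 547, and the sterol reductases *Tm7sf2* and *Lbr* had 460 and 496. *Ggps1*, which takes farnesyl diphosphate towards protein prenylation, had a base mean of 1598.

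Some enzymes of the pathway have a relative that does the same chemistry elsewhere in the cell or in other tissues. The mitochondrial thiolase gene *Acat1* had a base mean of 1991 and a level per length 1.40 times that of *Acat2*. *Idi1*, which isomerises the product of *Mvd*, had a base mean of 664, while its relative *Idi2* had 1.57.

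Of the genes of sterol sensing and uptake, 9 of 10 were above the median base mean of the table, and their median level was 272 per kilobase. *Srebf2*, which encodes the SREBP factor most tied to cholesterol synthesis, had a base mean of 4868, and its level per length was 1.54 times that of *Srebf1*, whose base mean was 2480. *Insig1* had a base mean of 2896, *Scap* 2384 and *Mbtps1*, the first protease that frees the factors, 2305. *Mbtps2*, the protease after it, had 641. *Insig2* had a base mean of 1312 and *Stard4*, a sterol carrier, 1253.

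The 7 genes of cholesterol export and removal had a median level of 276 per kilobase. *Apoe*, which encodes the main apolipoprotein of the central nervous system, had a base mean of 32923 and a level of 15399 per kilobase, beside 2010 for *Hmgcs1*. The exporters *Abcg1* and *Abca1* had base means of 2013 and 1331. *Cyp46a1*, the neuronal hydroxylase through which cholesterol leaves the brain, had 1237, and *Ch25h* had 24.8. The sterol receptor genes *Nr1h2* and *Nr1h3* had 1426 and 140.

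The 8 enzyme genes lie on 7 different chromosomes of GRCm38, the build that mm10 denotes. *Fdps* (chr3:89093588-89101959, minus strand) and *Pmvk* (chr3:89454541-89469013, plus strand) share chromosome 3, with 353 kb between them. *Hmgcs1* spans chr13:119690379-119708260 and *Lss* chr10:76531588-76557138, both on the plus strand. *Sqle* spans chr15:59315077-59331192 on the plus strand, and *Mvd* chr8:122433601-122443422 on the minus strand. *Mvk* (chr5:114444269-114460591, plus strand) is separated by 208 bases from *Mmab*, a gene of cobalamin metabolism on the opposite strand, and the pair is arranged head to head. *Mmab* had a base mean of 674 and a level of 184 per kilobase of exon, beside 228 for *Mvk*, but over the coding length its level was 1.75 times that of *Mvk*, so the direction depends on the length. *Rusc1* lies 276 bases from *Fdps* on the same strand and had a base mean of 4121. *Cyba* lies 670 bases from *Mvd* with a base mean of 126, and *Washc5* lies 804 bases from *Sqle* with 1235.

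The authors counted only reads with a unique position, so sequence that a gene shares with another one bears on its value. Each stretch of 100 bases of the longest protein-coding transcript was looked up, on both strands, in the annotated transcripts of other genes. *Mvk*, *Pmvk*, *Mvd* and *Sqle* had 0 shared stretches. *Lss* shared 60 of 4568 stretches (1.31%) with the antisense gene 4930483K19Rik, whose base mean was 117. *Hmgcs1* shared 364 of 3365 (10.8%) with the antisense transcript Gm48342 inside its own locus. The libraries were made with a stranded kit, so the reads carry strand, but the strand setting of the counting is not given in the sources used here. Whether reads of the antisense strand were kept apart from those of *Lss* and *Hmgcs1* is therefore not known.

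*Fdps* and *Acat2* share stretches with genes at other positions, and their values are uncertain in this respect. *Fdps* shared 972 of 1283 stretches (75.8%). Of these, with some counted in both places, 930 were in Gm43738, a gene model on the same strand that overlaps *Fdps*. Gm43738 spans chr3:89081939-89101099, across *Rusc1* as well, and shares 1124 of the 4208 exon bases of *Fdps* (26.7%). Away from the locus 242 stretches (18.9%) were found, in the processed pseudogenes Gm3571 on chromosome 10 and Gm5873 on chromosome 6. With stretches of 50 bases, 681 of 1333 (51.1%) were found away from the locus. Gm43738 adds no further place for a read to map, and no gene of that symbol was among the genes used here. The annotation used for the counting is not given in the sources used here. If it held Gm43738, a read that lies in 2 annotated genes may have been counted for neither, which was not tested. *Acat2* shared 760 of 2151 stretches (35.3%), all 760 of them with *Acat3*, a neighbouring copy of the gene, and 190 of these also with *Tcp1*. Gm43738, Gm48342 and the pseudogenes were not analysed here beyond their sequence. How many reads were lost or moved between these genes was not measured.

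*Acat2* (chr17:12942890-12960747) and *Acat3* (chr17:12923813-12940600) lie on the minus strand, 2289 bases apart. Both coding sequences have 1191 bases and align with no gap. They are identical at 1164 bases (97.7%) and differ at 27, and the longest identical run has 357 bases. A single read of 100 bases can therefore fall wholly inside identical sequence, although the reads were paired, and a mate outside it could place the pair. *Acat3* had a base mean of 867 beside 962 for *Acat2*, and its level was 357 per kilobase beside 378, a ratio of 1.06. *Acat3* also overlaps *Tcp1*, a chaperonin gene on the plus strand with a base mean of 4139, by 571 exon bases, whereas *Acat2* shares 0 exon bases with it. To show where reads can tell the copies apart, the 60 bases of 1 exon with the most differences are given for both genes. They are coding bases 954 to 1013, 5′ to 3′ on the minus strand, with the 7 differing bases in capitals, at chr17:12944410-12944469 for *Acat2* and chr17:12925278-12925337 for *Acat3*. This stretch was selected after the sequences had been compared.
Acat2: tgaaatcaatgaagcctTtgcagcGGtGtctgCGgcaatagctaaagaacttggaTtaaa
Acat3: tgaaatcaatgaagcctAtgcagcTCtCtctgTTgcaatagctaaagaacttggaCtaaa

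**Figure D3:**
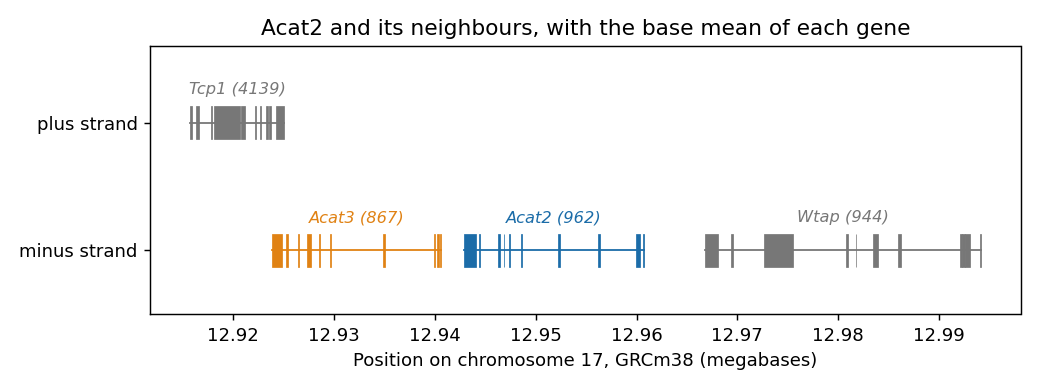
Map of the *Acat2* region on chromosome 17 of GRCm38, in megabases, with exons as boxes and the base mean of each gene in brackets. *Acat3* (867) and *Acat2* (962) lie side by side on the minus strand, and the last exon of *Acat3* meets *Tcp1* (4139) on the plus strand.

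The promoters of the enzymes were searched for the letters bound by the factors named above. RefSeq promoter windows of GRCm38.p6, which run from 250 bases before to 50 bases after a start, were matched by symbol for 6 of the 8 enzymes (*Acat2*, *Hmgcs1*, *Mvk*, *Pmvk*, *Mvd* and *Lss*), with 2 windows for *Pmvk*. *Fdps* and *Sqle* had no entry. Both strands were searched, and a match is a description of the letters, not evidence of binding. CCAAT, the NF-Y box, was found in 5 of the 7 windows (*Hmgcs1*, *Mvk*, *Mvd*, *Lss* and 1 of the 2 of *Pmvk*) and in 37.4% of all 32851 windows. GGGCGG, the GC box of Sp1, was likewise found in 5 of the 7 (*Acat2*, *Hmgcs1*, *Mvk*, *Mvd* and *Lss*), with 35.7% of all windows holding it. CACGTG, the E-box, was in 0 of the 7 and in 7.15% of all windows. TCACNCCAC, a core of the sterol regulatory element, was in 1 of the 7, that of *Hmgcs1*, and in 1.24% of all windows.

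*Hmgcs1* and *Mvk* held several copies of the NF-Y letters. *Mvk* had 5 matches to CCAAT, and 0.271% of all windows held as many. *Hmgcs1* had 4, as many as 1.06% of windows, and *Mvd* had 2, as many as 11.7%. The window of *Hmgcs1* thus combined 4 CCAAT, 3 GGGCGG and 1 TCACNCCAC match. To show these letters in place, the sterol element of *Hmgcs1* is printed with 12 bases on each side, followed by 1 CCAAT match of each of the 5 enzymes that had one. The sequences run 5′ to 3′ on the strand of the gene, capitals mark the match, and ATTGG is CCAAT read on the other strand. Distances are counted from the RefSeq start of each window, which need not be the start of the GENCODE span given above. The sterol element begins 137 bases before the start of *Hmgcs1*, at chr13:119690202-119690234 with its flanks. The CCAAT matches begin 45 bases before the start in *Hmgcs1* (chr13:119690294-119690322), 67 in *Mvk* (chr5:114444190-114444218), 136 in *Pmvk* (chr3:89454393-89454421), 27 in *Mvd* (chr8:122443433-122443461, minus strand) and 62 in *Lss* (chr10:76531531-76531559).
Hmgcs1 sterol element: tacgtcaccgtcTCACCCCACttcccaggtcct
Hmgcs1 NF-Y box: tccccgcctctcATTGGctgaaagcggat
Mvk NF-Y box: cttgaagttcccATTGGttaatgtttgac
Pmvk NF-Y box: aactcaggttggCCAATtcacagcatcta
Mvd NF-Y box: ccggccagcgggCCAATcatatggcagcg
Lss NF-Y box: ggtgatgctctgATTGGccgagctcgcat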

How the data were processed

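RNA of 5 WT and 5 *SOD1 G93A* spinal cords was sequenced, with groups taken from the sample labels. According to the methods and the submitters' processing notes, reads were filtered with Fastp, aligned to mm10 with HISAT2 2.1.0 and counted per gene with featureCounts 2.0.2, uniquely mapped reads only, and DESeq2 compared the genotypes. The deposited table gives a signal, the base mean, which the authors computed as the mean over all 10 libraries of counts divided by size factors. Its other 5 columns hold the authors' comparison (log2 fold change, standard error, Wald statistic, p-value and adjusted p-value) and were not used. The table has 0 columns of single libraries, so depth per library is unknown and no test was made.

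Symbols were matched to GENCODE M21 (GRCm38), where 24310 of 25232 (96.3%) named 1 gene, with 98.7% of the summed base mean. Base means were divided by the length of all exons together. Alternatives were other lengths, percentiles among genes of at least 10 or 100, and the 250 bases before the start. The longest protein-coding transcript, the search by stretches of 100 or 50 bases and the count of retained introns were added after the data were seen. A value per kilobase was taken as moved at a factor of 1.5, a percentile outside its exact 95% binomial interval.

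The members and lists were chosen with earlier results of these data known. The genes named are the 8 enzymes, the listed pathway, sensing, export and marker genes, and genes that overlap, adjoin or share sequence with an enzyme. The gene pairs set against each other, the neighbours named and the CCAAT matches printed were chosen after their values were seen. Coding sequences were aligned globally (match 2, mismatch -3, gap opening -8, extension -1). Some genes are not reported here. The search for shared stretches was tested on simulated data with planted copies on both strands. The percentile, the exon overlap and the motif search were each checked on a small made-up input, and the other steps were not tested. Python 3.11.15 was used with numpy 2.4.6, scipy 1.17.1, biopython 1.88 and matplotlib 3.10.9.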

Additional observations from a re-analysis of the deposited data

How the results depend on the processing

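The median percentile of the 8 enzymes by base mean was 78.2 among genes above 0, 71.3 among genes of at least 10 and 63.7 among genes of at least 100, a shift that follows from ranking fewer genes. Their median level was 359 per kilobase over all exons and 443 over the longest transcript, but 1042 over the coding length and 626 over the longest protein-coding transcript, a length added after the data were seen. The order of the enzymes changed at 3 places with the longest transcript, 5 with the coding length and 6 with the longest protein-coding transcript, and *Hmgcs1* was first in each. The share of the summed base mean stayed at 0.0793% without mitochondrial genes, as 0 symbols of that kind were in the table. With the 250 bases before the start alone, the number of enzymes with each of the 4 motifs was as before. With stretches of 50 bases, the shared part of *Lss* went from 1.31% to 4.35%, and *Fdps* shared 51.1% away from its locus in place of 18.9%. No paired analysis was possible because the base mean pools all libraries, and for the same reason leaving out single replicates was not run.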
